A study of Mus musculus with 2 samples.

Results

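Keratins are the intermediate filament proteins of epithelial cells, and 9 keratin genes that distinguish ductal from squamous epithelium were followed in single-cell RNA from mouse pancreatic tumours. They were picked by symbol, as 9 of the 32285 genes in the count matrices: Krt7, Krt8, Krt18 and Krt19 of simple and ductal epithelium, Krt20 and Krt23, which are found in differentiated gastrointestinal and glandular epithelium, and Krt5, Krt14 and Krt17 of basal and squamous epithelium. The tumours came from KPPC mice, a genetically engineered model of pancreatic ductal cancer whose alleles the labels do not spell out. Per the labels, mice aged 6 weeks received vehicle (1 library) or takinib at 50 mg/kg (1 library) for 14 days, and tumours were dissociated with enzymes before capture on the 10x platform. Takinib inhibits TAK1, the kinase encoded by Map3k7, which signals to NF-kB and AP-1. How many mice went into a library is not in the labels. With 1 library per group there was no test and no replicate check of any difference. Values in square brackets are 95% intervals that cover counting error only.

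Keratin filaments are built from obligate pairs of a type I (acidic) and a type II (basic) protein. Krt7, Krt8 and Krt5 encode type II chains, and Krt18, Krt19, Krt20, Krt23, Krt14 and Krt17 encode type I chains. Krt8 pairs with Krt18 in nearly all simple epithelia, Krt7 and Krt19 are typical of ducts, and Krt5 with Krt14 forms the filaments of basal cells in stratified epithelium. Pancreatic ductal cancer usually keeps the simple keratins, and a squamous or basal-like form of it gains the basal ones together with the transcription factor Trp63.

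In the GENCODE annotation of GRCm38 the type II genes lie on chromosome 15, with Krt7 at chr15:101411043-101430313, Krt5 at chr15:101707070-101712898 and Krt8 at chr15:101996698-102004482. Krt18, at chr15:102028180-102032027, is the exception among the type I genes: it lies 23697 bases from Krt8 and is transcribed in the opposite direction. The other type I genes lie on chromosome 11, namely Krt20 (99428403-99438150), Krt23 (99477974-99493137), Krt19 (100140810-100148665), Krt14 (100203162-100207548) and Krt17 (100256217-100261029).

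RefSeq promoters (GRCm38.p6) were found for 7 of the 9 genes, all but Krt17 and Krt19. The 250 bases before the RefSeq start are shown for the Krt8 and Krt18 pair, whose counts differed in opposite directions between the libraries, and for Krt20 and Krt23, which were both higher in takinib. Capitals mark matches, on either strand, to the letters of a TATA box, TATAAA, to those bound by AP-1 factors, TGANTCA, to a GC box, GGGCGG, or to 1 form of E-box, CAGGTG.
Krt8, chr15:102004343-102004592, minus strand: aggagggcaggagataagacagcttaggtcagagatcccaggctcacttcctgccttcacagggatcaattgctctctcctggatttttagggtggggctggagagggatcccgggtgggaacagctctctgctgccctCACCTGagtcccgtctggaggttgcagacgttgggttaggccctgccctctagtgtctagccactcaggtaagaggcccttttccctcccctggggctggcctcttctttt
Krt18, chr15:102027966-102028215, plus strand: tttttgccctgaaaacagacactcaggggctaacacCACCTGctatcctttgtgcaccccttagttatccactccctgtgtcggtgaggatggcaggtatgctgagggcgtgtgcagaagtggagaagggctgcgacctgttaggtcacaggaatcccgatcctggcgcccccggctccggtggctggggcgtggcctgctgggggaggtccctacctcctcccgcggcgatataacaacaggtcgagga
Krt20, chr11:99438154-99438403, minus strand: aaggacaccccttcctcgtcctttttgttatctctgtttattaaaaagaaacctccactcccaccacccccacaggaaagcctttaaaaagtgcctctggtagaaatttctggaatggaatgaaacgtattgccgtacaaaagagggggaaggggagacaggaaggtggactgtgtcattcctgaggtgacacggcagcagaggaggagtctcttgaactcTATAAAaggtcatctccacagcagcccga
Krt23, chr11:99493121-99493370, minus strand: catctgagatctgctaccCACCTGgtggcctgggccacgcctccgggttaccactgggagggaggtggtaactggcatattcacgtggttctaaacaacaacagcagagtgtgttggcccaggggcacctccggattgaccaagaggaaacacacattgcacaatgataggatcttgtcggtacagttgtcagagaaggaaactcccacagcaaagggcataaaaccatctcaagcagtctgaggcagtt

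The Krt8, Krt18 and Krt23 windows each held 1 E-box on the other strand from the one printed, starting 111, 214 and 232 bases before the start. The Krt20 window held a TATA box starting 29 bases before the start. No window of these 4 genes held an AP-1 match or a GC box, and no matches overlapped. Over 32851 RefSeq promoter windows of 250 bases, 17.2% held this E-box, 12.4% the TATA box, 32.7% the GC box and 6.75% the AP-1 match, so the matches shown are of common kinds.

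The libraries differed in more than treatment, and those differences cannot be told apart from it. Per the file headers the vehicle matrix came from Cell Ranger 4 and the takinib matrix from version 6.1.1. The vehicle matrix held 704261 barcodes, empty droplets included, and the takinib matrix 34158 barcodes, none with under 500 UMIs (unique molecular identifiers, counts of captured RNA molecules). After filters 9591 vehicle cells with a median of 3558 UMIs and 25183 takinib cells with a median of 2891 remained, and 363 cell barcodes occurred in both. Epithelial-like cells, named from 12 markers that include no keratin, numbered 1749 in vehicle (18.2% of cells, median 4990 UMIs) and 1763 in takinib (7.0%, median 9681 UMIs). All 12 epithelial markers were detected in both. Of the takinib epithelial-like cells 1555 carried Xist and no Y-linked UMI and 0 the reverse. Vehicle held 215 cells of the first kind and 830 of the second, so the vehicle library pooled male and female mice. The other 704 vehicle and 208 takinib cells held both kinds of UMI or neither. Ratios against female or male vehicle cells leave these vehicle cells out and keep all takinib cells. The summed level of 10 neutrophil markers in epithelial-like cells was 153 CPM (counts per 1000000 UMIs of the same cells) in vehicle and 8936 CPM in takinib, all 10 detected in both. Without the sub-groups that scored as leukocytes (1702 vehicle and 1151 takinib cells left), Krt8, Krt18, Krt20 and Krt23 had ratios of -0.48, 0.57, 1.10 and 1.30 in log2, the ratio being defined below.

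Nearly all keratin RNA in these tumours belonged to the 9 genes. They held 99.2% of the UMIs of 53 keratin genes in vehicle and 99.4% in takinib. Together they made up 5971 CPM of the epithelial-like cells in vehicle and 6335 CPM in takinib. The median epithelial-like cell devoted 0.43% of its UMIs to them in vehicle and 0.45% in takinib, with the middle 50% of cells between 0.20% and 0.77% in vehicle and between 0.26% and 0.71% in takinib. The simple keratins Krt7, Krt8, Krt18 and Krt19 carried 97.2% of the 9-gene total in vehicle and 94.7% in takinib.

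Where the keratins were found followed epithelial identity closely for 7 of the 9 genes. Between 93.2% and 95.8% of the UMIs of Krt7, Krt8, Krt18 and Krt19 in each library lay in epithelial-like cells, although the keratins were left out of the clustering that defined those cells. The share was 90.5% in vehicle and 90.9% in takinib for Krt20, 94.5% and 91.8% for Krt23, and 97.8% and 89.4% for Krt17. In macrophage-like cells, which should lack keratin, Krt8 stood at 37.4 CPM in vehicle and 12.4 in takinib. Vehicle barcodes with at most 100 UMIs, taken as empty droplets, held the 9 genes at 1162 CPM, so free keratin RNA was present. The low levels in leukocyte classes are read as background. The heat map of classes shows this contrast.

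**Figure D1:**
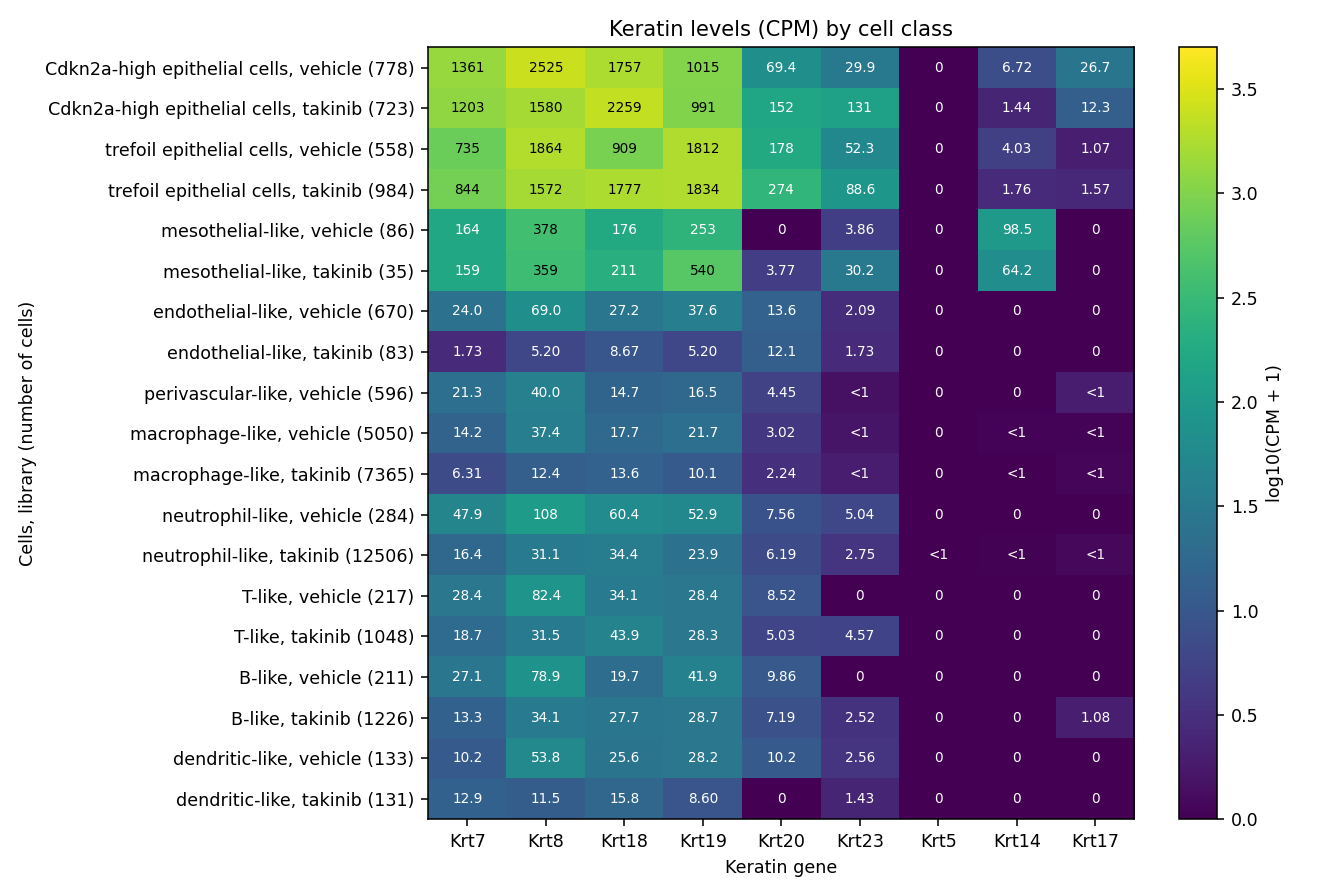
Levels of the 9 keratins (columns, CPM printed in each cell and coloured as log10 of CPM plus 1) in cell classes of each library with at least 20 cells (rows, number of cells in brackets). The simple keratins reach 735 to 2525 CPM in the epithelial families and stay under 110 CPM in every immune, endothelial and perivascular class, while Krt14 is highest in mesothelial-like cells.

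In epithelial-like cells as a whole, Krt8 was the most abundant keratin transcript of the vehicle library and Krt18 that of the takinib library. Per captured molecule, with no correction for length, Krt8 stood at 2194 CPM in vehicle and 1574 in takinib, which is -0.48 as a log2 ratio of takinib to vehicle [-0.50, -0.45]. Krt18, its type I partner, stood at 1316 CPM in vehicle and 2006 in takinib, a log2 ratio of 0.60 [0.58, 0.63]. The partners thus differed in opposite directions. With no doublets removed, or under a stricter rule for naming clusters, the Tff2-led cluster described below went unnamed and the Krt18 ratio became -0.30 and -0.56. The duct keratin Krt19 was at 1269 and 1400 CPM, a log2 ratio of 0.14 [0.11, 0.17]. Krt7, the type II duct keratin, was at 1025 and 1018 CPM, a log2 ratio of -0.01 [-0.04, 0.02]. Over the 13 alternatives of the closing section the Krt7 ratio ran from -1.07 to 0.08. Every ratio adds 10 CPM to each library's level before the log2 is taken, which understates the change of low genes.

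Krt20 and Krt23 were higher in takinib. Krt20 stood at 110 CPM in vehicle (1272 UMIs) and 218 in takinib (4540 UMIs), a log2 ratio of 0.93 [0.85, 1.02]. Krt23 stood at 35.9 CPM (416 UMIs) and 110 CPM (2281 UMIs), a log2 ratio of 1.38 [1.26, 1.51]. Krt23 was the only one of the 8 members with at least 50 counts in a library whose ratio passed 1. Of the 12447 genes counted in the same way, 2.23% passed 1 on the takinib side, 1.82% on the vehicle side and 4.05% in either direction, around a median gene ratio of -0.09.

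Summed by group, the simple keratins were at 5805 CPM in vehicle and 5998 in takinib (log2 ratio 0.05 [0.03, 0.06]), a difference whose sign turned under 7 of the alternatives given in the closing section. Krt20 and Krt23 together were at 145 and 328 CPM (1.12 [1.05, 1.19]) and stayed higher in takinib under each alternative. Krt5, Krt14 and Krt17 together were at 20.7 and 8.51 CPM (-0.73 [-0.89, -0.57]) and stayed lower under each, on 240 and 177 UMIs in all. Within the Tff2-led cluster described below this sum was the higher in takinib, at 4.56 CPM in vehicle and 8.74 in takinib. In the cluster led by Tnc and Cdkn2a it was the lower, at 34.6 and 9.28 CPM.

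The share of cells with a UMI was higher in takinib for Krt18, Krt20 and Krt23 once depth was made equal. With every epithelial-like cell thinned to 1000 UMIs, Krt18 was seen in 54.9% of vehicle and 66.6% of takinib cells (82.4% and 86.8% unthinned). Thinned shares were 7.95% and 12.9% for Krt20 (28.8% and 44.8% unthinned), and 3.14% and 7.88% for Krt23 (15.4% and 38.6%). Krt8 was seen in 66.9% and 66.1% of thinned cells (87.6% and 92.8% unthinned). This share differed by less than its counting error, although the Krt8 level in CPM was lower in takinib. No order between the libraries is therefore read from the Krt8 share. Within the Cdkn2a-high family described below, the thinned Krt18 share was 71.5% [68.2, 74.6] in vehicle and 74.7% [71.4, 77.8] in takinib, which overlap, and that of Krt8 was 77.8% and 65.3%. In thinned macrophage-like cells, the background, the Krt8 share was 3.66% in vehicle and 1.30% in takinib, and that of Krt20 0.30% and 0.18%.

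The epithelial-like cells were not one kind of cell, and the libraries drew on different kinds. The largest number of vehicle cells lay in a cluster led by Tnc and Cdkn2a (802 vehicle and 130 takinib cells), and most takinib cells in a cluster led by Tff2 and Dmbt1 (593 and 1368). Re-clustering without keratins gave 13 sub-groups, called here by a leading gene. These were gathered, by a rule on genes other than keratins chosen after the data had been seen, into a Cdkn2a-high family (Cdkn2a at 500 CPM or more in the sub-group, 778 vehicle and 723 takinib cells) and a trefoil family (Tff2 at 1000 CPM or more, 558 and 984 cells). Cdkn2a encodes the cell-cycle inhibitors p16 and p19Arf, and Tff2 a secreted trefoil peptide of gastric mucous cells. The sub-group called Ctrb1 in the trefoil family was the only one with at least 100 cells in each library (512 and 150).

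The keratin mix differed between the families within a library. In vehicle, Krt7 was at 1361 CPM in the Cdkn2a-high family and 735 CPM in the trefoil family, and Krt18 at 1757 and 909 CPM. Krt19 went the other way, at 1015 CPM in the Cdkn2a-high family and 1812 CPM in the trefoil family. In takinib Krt19 was again lower in the Cdkn2a-high family, at 991 against 1834 CPM, and Krt7 again higher, at 1203 against 844 CPM. Krt20 was lower in the Cdkn2a-high family than in the trefoil family in both libraries, at 69.4 against 178 CPM in vehicle and 152 against 274 CPM in takinib. Krt17 was higher in the Cdkn2a-high family, at 26.7 against 1.07 CPM in vehicle and 12.3 against 1.57 CPM in takinib. The C3 sub-group, outside both families, held it at 42.6 CPM [17.1, 87.9] on 7 UMIs in 46 vehicle cells.

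**Figure D2:**
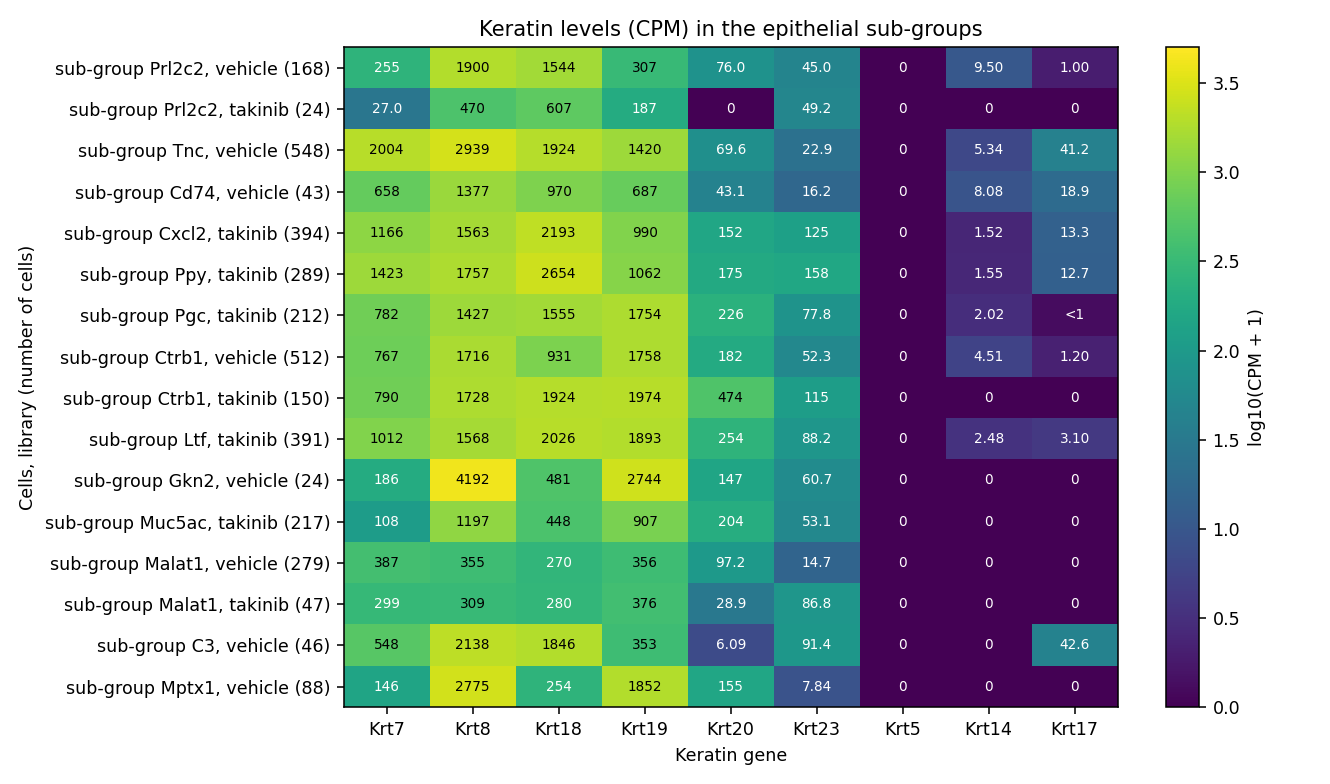
Levels of the 9 keratins (columns, CPM printed and coloured as log10 of CPM plus 1) in each epithelial sub-group and library with at least 20 cells (rows, number of cells in brackets), ordered by Cdkn2a-high family, trefoil family and the rest. Krt7 is lowest in the Prl2c2, Muc5ac, Mptx1 and Gkn2 sub-groups and Krt18 is low in the last 3 of these, while Krt8 stays at 1197 CPM or more in the sub-groups other than Malat1 and the 24 takinib cells of Prl2c2.

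Krt8 was the most widely spread of the genes and Krt7 the most restricted of the simple keratins. In the Tnc sub-group of vehicle (548 cells), Krt7 was at 2004 CPM [1960, 2048], Krt8 at 2939, Krt18 at 1924 and Krt19 at 1420 CPM, and the 9 genes summed to 8426 CPM. This was the highest sum of any sub-group with at least 20 cells. In the Prl2c2 sub-group of vehicle (168 cells), Krt8 was still at 1900 CPM and Krt18 at 1544 CPM, but Krt7 was at 255 CPM [233, 278] and Krt19 at 307 CPM. Only 22.6% of these cells held a Krt7 UMI, against 93.2% of the Tnc sub-group, although their median depth was the greater (10522 against 5790 UMIs). The Prl2c2 sub-group also held the most Vim, the vimentin filament gene of mesenchymal cells, at 5466 CPM against 974 CPM in Tnc, and little Epcam, at 122 against 1925 CPM. Its 24 takinib cells had Krt7 at 27.0 CPM, Krt19 at 187, Krt8 at 470 and Krt18 at 607 CPM, beside Vim at 4859 and Epcam at 4.92 CPM. Krt19 thus had its lowest value of each library in the sub-group with the highest Vim, close to the 353 CPM of C3 and 356 CPM of Malat1 in vehicle, and Krt8 and Krt18 remained the main keratins there. Krt7 was lower still in the vehicle Mptx1 and Gkn2 sub-groups.

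The goblet-like and gastric-like cells had another mix. In the Mptx1 sub-group, scored as goblet-like (88 vehicle cells), Krt8 was at 2775 CPM and Krt19 at 1852 CPM, while Krt18 was at 254 CPM and Krt7 at 146 CPM. In the 24 vehicle cells of the gastric-like Gkn2 sub-group Krt8 was at 4192 CPM [3932, 4465] and Krt19 at 2744 CPM [2534, 2966], the highest of either gene in any sub-group, and Krt18 was at 481 and Krt7 at 186 CPM. The Muc5ac sub-group, 217 takinib cells with a median of 1478 UMIs and none in vehicle, had Krt8 at 1197, Krt19 at 907, Krt18 at 448 and Krt7 at 108 CPM. It also carried S100a8, a neutrophil gene, at 12971 CPM. In these 3 sub-groups Krt19 was the leading type I keratin, as it also was in the Ctrb1, Pgc and Malat1 sub-groups. Krt20, which is known from intestinal and gastric surface epithelium, was at 155, 147 and 204 CPM in them, within the 69.6 to 474 CPM of the sub-groups Tnc, Ctrb1, Ltf, Pgc, Cxcl2 and Ppy.

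Within the Cdkn2a-high family Krt8 was lower and Krt18, Krt20 and Krt23 were higher in takinib. Of the family's 723 takinib cells, 394 lay in the Cxcl2 sub-group, which scored highest for neutrophil markers. Of its 778 vehicle cells, 43 lay in the Cd74 sub-group, which scored highest for macrophage markers. Krt8 was at 2525 CPM in vehicle and 1580 in takinib (log2 ratio -0.67 [-0.70, -0.64]). Krt18 was at 1757 and 2259 CPM (0.36 [0.33, 0.39]), but against the female vehicle cells alone its ratio was -0.03 [-0.10, 0.03]. Krt19 was at 1015 and 991 CPM (-0.03 [-0.08, 0.01]), within counting error. Krt7 was at 1361 and 1203 CPM (-0.18 [-0.22, -0.14]), but against male vehicle cells alone its ratio was 0.0053 [-0.04, 0.05]. Krt20 was at 69.4 and 152 CPM (1.02 [0.89, 1.16]) and Krt23 at 29.9 and 131 CPM (1.82 [1.65, 2.00]). These last 2 genes were the ones past a ratio of 1 among the 7 members with at least 50 counts, where 3.38% of 10978 genes passed 1 on the takinib side, 2.20% on the vehicle side and 5.57% on either.

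The result for Krt18 and Krt20 depended on how these cells were grouped. In the cluster led by Tnc and Cdkn2a, before re-clustering, Krt18 was at 1759 CPM in 802 vehicle cells and 1259 in 130 takinib cells (-0.48 [-0.55, -0.41]), and Krt20 at 67.5 and 55.7 CPM (-0.24 [-0.52, 0.04]). Krt8 was lower in takinib there too (-1.28 [-1.35, -1.21]), and Krt23 higher, at 31.5 and 71.9 CPM (0.98 [0.70, 1.25]).

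The Tnc and Prl2c2 sub-groups of this family were filled mostly from vehicle, and the Cxcl2 and Ppy sub-groups mostly from takinib, so the comparison sets unlike sub-groups against each other. Krt23 was at 125 CPM in the Cxcl2 sub-group (394 takinib cells) and 158 CPM in Ppy (289 takinib cells), against 22.9 CPM in Tnc and 45.0 CPM in Prl2c2 of vehicle. Both takinib sub-groups lay above both vehicle ones. The Prl2c2 sub-group was the only one of this family with at least 20 cells in each library. Krt8 was lower in takinib there too, at 1900 CPM in vehicle and 470 in takinib. The sub-group did not show the family's higher Krt18, Krt20 and Krt23. There Krt23 was at 45.0 CPM in vehicle (90 UMIs) and 49.2 in its 24 takinib cells (20 UMIs), with intervals that overlap. Krt20 was at 76.0 CPM in vehicle and had 0 UMIs in takinib, which allows up to 7.38 CPM, and Krt18 was at 1544 and 607 CPM. The Cxcl2 sub-group scored highest as neutrophil (0.505, against 0.302 for ductal carcinoma). It carried S100a8 at 8677 CPM and the Ppy sub-group at 360 CPM, and Krt23 was the higher in Ppy. Against female vehicle cells the Krt23 ratio was 1.95 [1.49, 2.42] and against male vehicle cells 1.78 [1.57, 1.99].

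In the trefoil family Krt18 had the largest ratio. It was at 909 CPM in vehicle and 1777 in takinib (0.96 [0.91, 1.01]). Here too the comparison sets unlike sub-groups against each other. Of 558 vehicle cells 512 were of Ctrb1, while most of the 984 takinib cells were of Ltf (391), Muc5ac (217) and Pgc (212). Krt20 was at 178 and 274 CPM (0.60 [0.48, 0.71]) and Krt23 at 52.3 and 88.6 CPM (0.66 [0.47, 0.86]). Krt8 was at 1864 and 1572 CPM (-0.24 [-0.28, -0.20]), Krt19 at 1812 and 1834 CPM (0.02 [-0.02, 0.06]) and Krt7 at 735 and 844 CPM (0.20 [0.13, 0.26]). None of the 6 members with at least 50 counts passed a ratio of 1, as 2.52% of 10448 genes did on the takinib side, 0.565% on the vehicle side and 3.08% on either. The Krt7 ratio differed with the vehicle cells used. It was 1.22 [1.00, 1.44] against the 82 female and -0.03 [-0.11, 0.04] against the 235 male vehicle cells. Whether the animals or the mix of sub-groups moved it was not tested. With cells thinned to equal depth the Krt7 ratio was -0.29.

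The Ctrb1 sub-group allowed a comparison within 1 sub-group. It scored as acinar, led by the digestive enzyme genes Ctrb1, Prss2, Try5 and Cpa1, and over all epithelial-like cells the summed level of 9 acinar markers was 756 CPM in vehicle and 1894 in takinib, whose part in the results was not tested. Krt8 was at 1716 CPM in vehicle and 1728 in takinib (0.01 [-0.05, 0.07]), and Krt7 at 767 and 790 CPM (0.04 [-0.05, 0.14]). Krt19 was at 1758 and 1974 CPM (0.17 [0.10, 0.23]). Krt18, by contrast, was at 931 and 1924 CPM (1.04 [0.97, 1.11]), Krt20 at 182 and 474 CPM (1.33 [1.18, 1.48]) and Krt23 at 52.3 and 115 CPM (1.00 [0.74, 1.26]). These last 3 genes passed a ratio of 1 of the 6 members counted, where 2.12% of 7365 genes did so on the takinib side, 2.09% on the vehicle side and 4.21% on either, around a median gene ratio of -0.16. Their ratios against female vehicle cells were 1.16, 1.53 and 1.48, and S100a8 in this sub-group was at 19.8 CPM in vehicle and 294 in takinib. Even so the sub-group was not alike in other genes, since Tff1 was at 6640 and 22238 CPM.

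**Figure D3:**
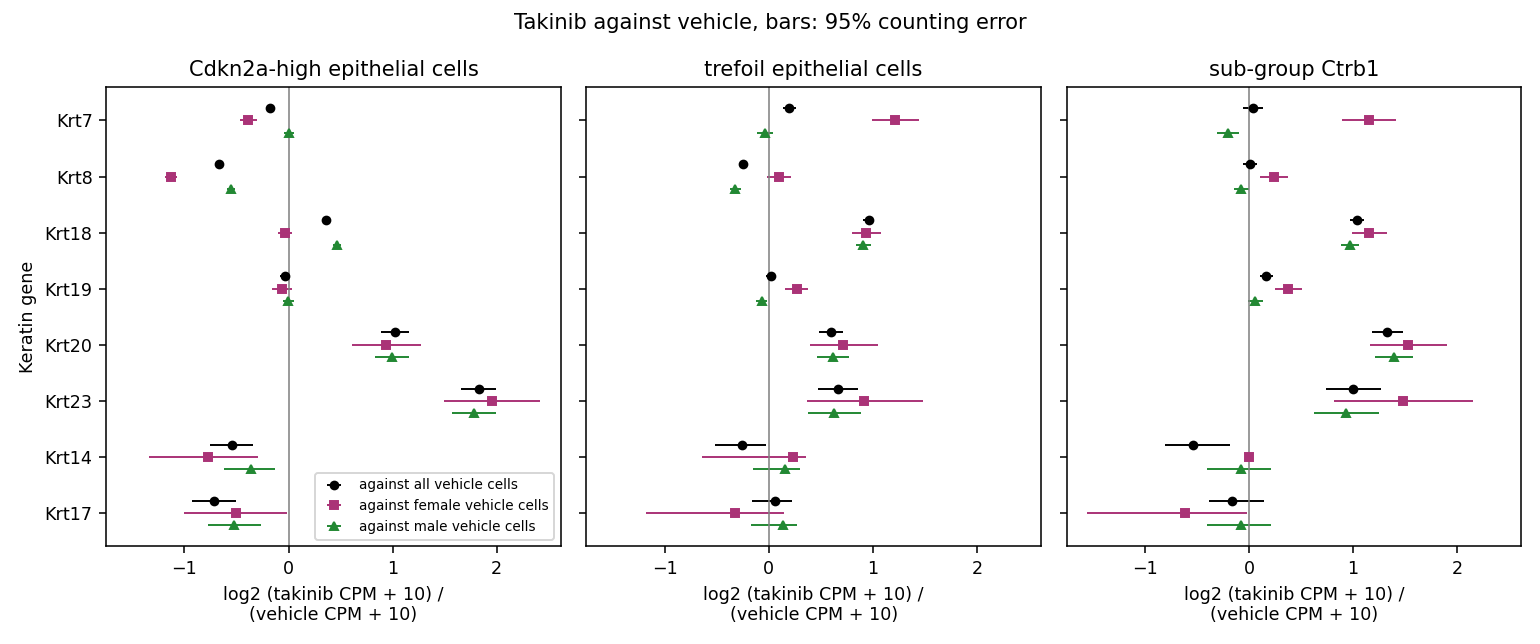
Log2 ratio of takinib to vehicle (x axis, CPM plus 10 in each) for 8 keratins (y axis; Krt5 had no UMI) in the 2 families and the Ctrb1 sub-group, against all, female and male vehicle cells, with 95% bars for counting error. Krt20 and Krt23 lie right of 0 in every panel and against each set of vehicle cells, while Krt7 moves from -0.03 to 1.22 in the trefoil family with the sex of the vehicle cells.

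The ratio of Krt18 to Krt8 counts, which does not depend on how a library is scaled, was higher in takinib in both families and in most other classes. In epithelial-like cells there were 0.60 Krt18 UMIs per Krt8 UMI in vehicle [0.59, 0.61] and 1.27 in takinib [1.26, 1.29]. The Cdkn2a-high family gave 0.70 and 1.43, the trefoil family 0.49 and 1.13, and the Ctrb1 sub-group 0.54 and 1.11. Female and male vehicle cells were at 0.66 [0.63, 0.70] and 0.60 [0.58, 0.61], both below the takinib value. The background in macrophage-like cells had 0.47 [0.42, 0.53] and 1.10 [0.98, 1.22], and that in neutrophil-like cells 0.56 [0.32, 0.94] and 1.11 [1.02, 1.21]. In mesothelial-like cells the ratio was 0.46 [0.36, 0.60] and 0.59 [0.42, 0.83], and these intervals overlap. Over the vehicle sub-groups the ratio ran from 0.86 in C3 (46 cells) and 0.81 in Prl2c2 to 0.11 in Gkn2 and 0.09 in Mptx1. Over the 9 genes, type I counts per type II count were 0.85 in vehicle and 1.44 in takinib. Whether the Cell Ranger version, the chemistry or the animals moved this ratio cannot be told apart from treatment.

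**Figure D4:**
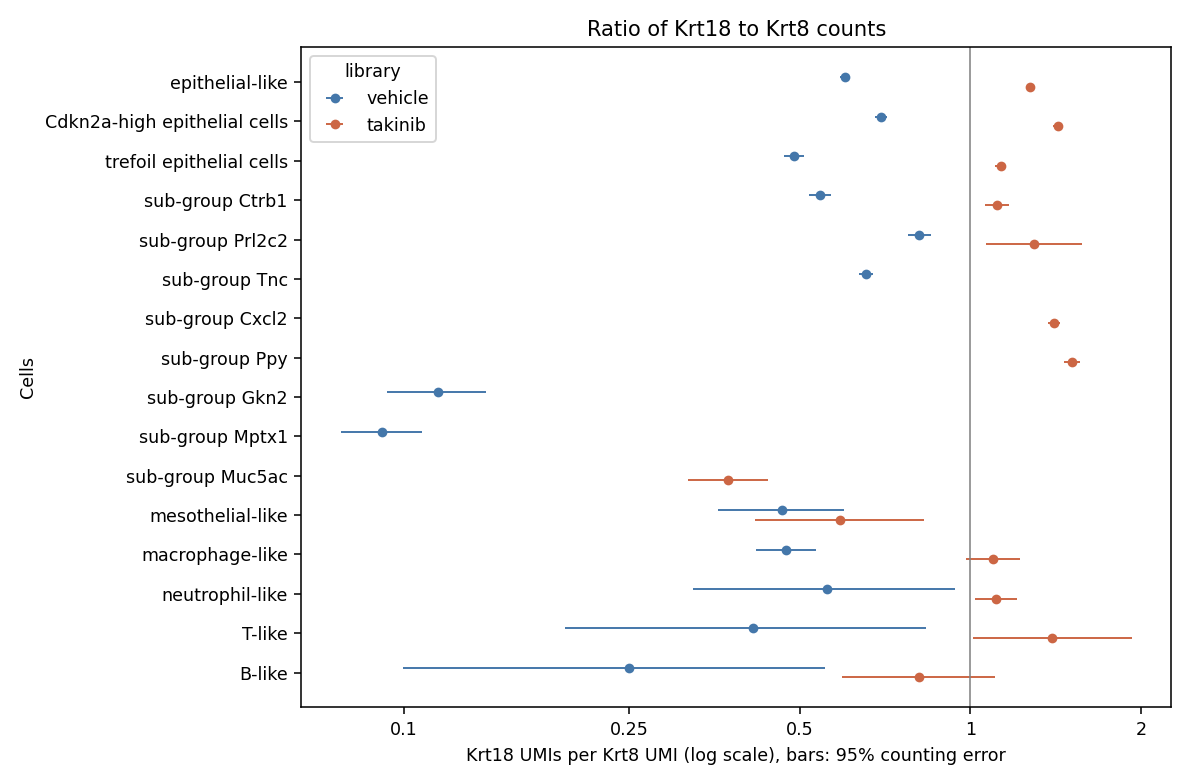
Krt18 UMIs per Krt8 UMI (x axis, log scale) in epithelial families, sub-groups and other classes (y axis) of the vehicle and takinib libraries, with 95% bars for counting error. Takinib points lie near or above 1 except for mesothelial-like cells, the Muc5ac sub-group and B-like cells, and vehicle points lie below 1 throughout, lowest at 0.09 in Mptx1.

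Of the basal keratins, Krt5 was not detected in epithelial-like cells, while Krt14 and Krt17 were seen in few of them, as described below. Krt5 had 0 UMIs in epithelial-like cells of both libraries, which allows a level of up to 0.26 CPM in vehicle and 0.14 in takinib, and 1 UMI in all kept cells, in a takinib neutrophil-like cell. Trp63, the basal transcription factor, had 1 UMI in vehicle and 2 in takinib in the Cdkn2a-high family, and the desmosomal cadherin gene Dsc3 had 0 UMIs in epithelial-like cells. Of 10 squamous markers 9 were detected in each library, led by genes such as Sprr1a and Sfn. Their summed level was 508 CPM in vehicle and 567 in takinib. Krt5 and Trp63 thus did not bear out a label of squamous epithelium in these cells, while the summed marker level did not exclude one. The Tnc sub-group, which held most Krt17, scored highest for ductal carcinoma (0.359) and next for erythroid markers (0.349). The squamous markers, at least 3 of them detected, reached at least 0.75 of the top score. The sub-group was therefore left without a class name.

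Krt17 was present in a minority of the Cdkn2a-high cells. The Tnc sub-group of vehicle held 162 of the 182 epithelial-like Krt17 UMIs of that library, a level of 41.2 CPM [35.1, 48.0], in 10.6% of its cells. Of the 71 vehicle cells with a Krt17 UMI, 39 held at least 2 and 70 also held Krt8. In the Cdkn2a-high family Krt17 was at 26.7 CPM in vehicle (171 UMIs in 63 cells) and 12.3 in takinib (128 UMIs in 29 cells), a log2 ratio of -0.72 [-0.93, -0.50]. A single takinib cell held 50 of those 128 UMIs, or 39.1%, and the highest vehicle cell held 24. Thinned to equal depth, Krt17 was seen in 3.21% of vehicle and 0.69% of takinib cells of this family (8.10% and 4.01% unthinned), against 0.02% and 0.05% of macrophage-like cells.

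Krt14 lay as much outside the epithelium as in it. Of 111 Krt14 UMIs in vehicle 58 were in epithelial-like cells (52.3%), and of 69 in takinib 33 were (47.8%). Mesothelial-like cells, named from markers such as Upk3b, held 51 UMIs in 10 of 86 vehicle cells, or 98.5 CPM, and 17 UMIs in 4 of 35 takinib cells, or 64.2 CPM, of which 1 cell held 10. They also carried Krt8 at 378 and 359 CPM, Krt19 at 253 and 540 CPM and Krt7 at 164 and 159 CPM, the keratins of normal mesothelium, and Lgals7 at 618 and 438 CPM. In epithelial-like cells Krt14 was at 5.0 CPM in vehicle and 1.59 in takinib (-0.37 [-0.52, -0.23]). In the trefoil family of vehicle 14 of 15 Krt14 UMIs came from 1 cell.

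Genes that work with keratin filaments were compared in the same families, with a ratio past 1 as the threshold and lists written with earlier results known. In the Cdkn2a-high family 3.38% of all genes counted passed on the takinib side and 2.20% on the vehicle side. Of 10 counted desmosome genes 0 were higher and 1 lower in takinib, Pkp1, a plakophilin of stratified epithelium, at 73.0 and 20.8 CPM (-1.43), and the list median was -0.12. Jup, plakoglobin, was at 197 and 120 CPM (-0.67), while Ppl (0.88) and Perp (0.88) had the highest ratios of the list. Of 8 counted genes of the hemidesmosome and its laminin, which tie keratin to the basement membrane, 0 were higher and 2 lower: Dst at 217 and 96.9 CPM (-1.09) and Itgb4 at 246 and 111 CPM (-1.08). The list median was -0.55, and its highest ratio was that of Itga6 (-0.30), the integrin alpha chain of the hemidesmosome. The median over all 10978 genes was -0.05.

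Other filament and lineage genes of that family are read against the same shares, 3.38% on the takinib side and 2.20% on the vehicle side. Of 9 counted mesenchymal genes 3 were lower in takinib and 1 higher: Fn1 at 6954 and 1585 CPM (-2.13), Vim at 2424 and 580 CPM (-2.04) and Cdh2 at 56.3 and 15.6 CPM (-1.37), against Prrx1 at 2.19 and 19.0 CPM (1.25). Of 5 counted other intermediate filament genes 3 were lower, Vim, the lamin gene Lmna (-1.20) and the nestin gene Nes (-1.19), and 0 were higher. Among 15 tight junction and apical genes Cldn7 was higher (246 and 518 CPM, 1.05) and Cldn18, a gastric claudin, lower (45.8 and 11.1 CPM, -1.41). Among 15 ductal and foregut factors 1 was higher, Elf3 at 53.9 and 163 CPM (1.44), an epithelial transcription factor, and Sox9, the duct factor, was at 310 and 190 CPM (-0.68). Of 8 counted genes of the squamous programme 1 was higher, Ly6d at 4.53 and 80.7 CPM (2.64), and 0 were lower. Of 7 filament regulators 1 was lower, the small heat shock gene Hspb1 at 270 and 112 CPM (-1.20). Vehicle cells of this family include the Vim-high Prl2c2 sub-group, of which takinib had 24 cells.

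In the trefoil family 2.52% of all genes counted passed on the takinib side and 0.565% on the vehicle side, so lists of this size hold few calls or 0. There were 0 calls among 9 desmosome, 8 hemidesmosome and laminin, 8 squamous, 17 ductal and foregut, 5 other intermediate filament and 7 filament regulator genes, whose medians ran from -0.24 to 0.21. Of 15 tight junction and apical genes 2 were higher, Cldn4 at 25.2 and 147 CPM (2.15) and Cldn3 at 85.1 and 239 CPM (1.39), and 0 lower. Of 5 counted mesenchymal genes Zeb2 was higher, at 17.4 and 45.6 CPM (1.02), in a family whose S100a8 level was 37.0 CPM in vehicle and 2776 in takinib. Of 18 keratin genes outside the 9, 2 were counted in the Cdkn2a-high family, Krt10 with a log2 ratio of -0.35 and Krt80 with -0.12, and neither passed the threshold.

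Across 11 sub-group and library units of at least 50 cells, the members did not vary as one. Krt18 and Krt7 had a Pearson r of 0.78 and Krt18 and Krt23 one of 0.79, while Krt8 and Krt18 had 0.42 and Krt7 and Krt19 0.33. These are descriptions over units that share 2 libraries, with their depth and background. Over 10035 genes the closest to Krt8 was Ap2s1 (r = 0.98), the closest to Krt18 Nop14 (0.98), to Krt19 Smim22 (0.96), to Krt7 Stard3 (0.96), to Krt20 Pllp (0.96), to Krt23 Tatdn2 (0.95) and to Krt17 Eif5b (0.93). With that many genes over 11 units, high values occur for many of them. The genes ranked next were Mien1 and Arf3 for Krt8, Phax and Exosc4 for Krt18, Rufy1 and Tmem238 for Krt19, Abhd4 and Eml2 for Krt7, Glul and Duoxa2 for Krt20, Uap1l1 and Scamp4 for Krt23, and Obsl1 and Ctps2 for Krt17.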

How the data were processed

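Raw UMI counts per gene and barcode were taken as deposited. Per the file headers the authors made these counts with Cell Ranger 4 (vehicle) and 6.1.1 (takinib), while the submitters' processing notes name Cell Ranger 2.1.1 and mm10. How the counts were made can therefore differ between the libraries, and the chemistry is not given in the sources used here. No annotation of cell types was used.

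A barcode needed 1000 UMIs, 500 genes and no more than 20% mitochondrial UMIs, which 9872 in vehicle and 26790 in takinib met. Scrublet marked 2.85% of vehicle barcodes (281 removed). In takinib it marked 0.00373%, below the 0.5% set for a working caller, so the 6% that scored highest (1607) were taken out. Both libraries were clustered together with every Krt gene left out, using scanpy 1.11.5, 2000 variable genes, 30 principal components, 15 neighbours and Leiden resolution 1. Epithelial-like cells were re-clustered at resolution 0.5 with 20 components. A class name needed 3 detected markers of a keratin-free list. The naming rule and the families were set after the data had been seen, and the members and gene lists were chosen with earlier results of these data known. Clusters that met no name, among them 1 of 68 takinib cells with enterocyte genes, were left out of the named classes, so a difference in shares may come from rebuilt names.

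Counts were summed per class and library and scaled to CPM. Ratios are log2 of CPM plus 10 and understate changes of low genes. A gene was counted with at least 50 UMIs in a library and called past a log2 ratio of 1. Intervals at 95% are exact Poisson for sums, Clopper-Pearson for shares and combined Poisson bounds for ratios, in place of the conditional binomial planned, since it ignores the added 10 CPM. A count of 0 is given the limit of 3 counts. The named genes are the 9 members, the 2 highest and 2 lowest of each list or those past the threshold, and the 3 genes most alike each member with at least 50 counts in both libraries. The value of 1 list gene is not reported here. Genes such as S100a8, Tff1, Lgals7, Epcam, Jup and Sox9 were added after their values were seen. Female cells hold Xist and no Y-linked UMI, and male cells the reverse. The steps were tested on simulated counts. Alternatives covered filters, pseudocount, scaling, thinning, sex of cells, clustering, a marker gate, doublets and naming.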

Additional observations from a re-analysis of the deposited data

Results flagged for a closer look

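Krt7 differed in direction between the epithelial families. Its log2 ratio of takinib to vehicle was -0.18 in the Cdkn2a-high family and 0.20 in the trefoil family, each with a counting interval that leaves out 0. The difference was not tested, since each group has 1 library. In the Cdkn2a-high family the value was -0.39 against female and 0.0053 against male vehicle cells, the latter within counting error. In the trefoil family the value rested on which vehicle cells were used, 1.22 against female and -0.03 against male cells, and it was -0.29 with cells thinned to equal depth.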

How the results depend on the processing

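No paired analysis was possible because each group has 1 library, and for the same reason no replicate could be left out. In epithelial-like cells the summed simple keratins (log2 ratio 0.05) turned to -0.017 with a mitochondrial limit of 10%, -0.10 with cells thinned to 1000 UMIs, -0.15 against female vehicle cells, -0.063 with keratins among the clustered genes, -0.31 with each library clustered alone, -0.74 with no doublets removed and -0.90 under a stricter naming rule. They were 0.14 with the median gene ratio scaled to 0, 0.023 with a marker gate and 0.068 without leukocyte-scored sub-groups.

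Summed Krt20 and Krt23 (1.12) were higher in takinib throughout, at 0.95 with a pseudocount of 50 CPM, 0.93 thinned, 1.21 scaled to the median gene, 1.26 against female vehicle cells, 1.33 with keratins clustered, 1.63 with each library alone, 1.23 with the marker gate, 0.79 with no doublets removed, 0.98 under stricter naming and 1.21 without leukocyte-scored sub-groups.

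Summed Krt5, Krt14 and Krt17 (-0.73) were lower throughout, at -1.19 with a pseudocount of 1 CPM, -0.27 with 50 CPM, -1.34 thinned, -1.40 with each library alone, -0.95 with the marker gate, -1.22 under stricter naming and -0.95 without leukocyte-scored sub-groups.

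Of single genes in epithelial-like cells, Krt18 (0.60) turned to -0.30 with no doublets removed and -0.56 under stricter naming, and Krt19 (0.14) to -0.052 with keratins clustered, -0.026 with each library alone, -0.70 with no doublets removed and -0.76 under stricter naming. In the families, Krt18 in Cdkn2a-high cells turned to -0.033 against female vehicle cells. In trefoil cells Krt7 turned to -0.29 thinned, Krt8 to 0.10 against female vehicle cells, and Krt14 to 0.23 against female vehicle cells and 0.15 thinned.

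The stricter naming rule and the removal of leukocyte-scored sub-groups, and the alternatives for the families other than the pseudocount, were chosen after seeing the data. With no doublets removed and under the stricter rule the cluster led by Tff2 is left unnamed, so only 483 and 395 takinib cells remain, against 1156 vehicle cells in both. Krt8, Krt14, Krt17, Krt20 and Krt23 in epithelial-like cells kept their direction under all 13 alternatives, Krt20 between 0.51 and 1.40 and Krt23 between 0.90 and 1.89. Depth limits Krt5, Krt14 and Krt17 most, which rest on 0 to 182 UMIs per library.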
